A study of Mus musculus with 6 samples.

Results

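The genes described here encode the enzymes that write and erase histone methylation and those that remove histone acetylation. Members were the protein-coding rows of the deposited table whose symbol starts with Kdm, Kmt, Setd or Hdac and a digit, together with Ezh1, Ezh2, Eed, Suz12, Ehmt1, Ehmt2, Suv39h1, Suv39h2, Dot1l and Nsd1. Of 27372 genes in the table, 54 met this rule: 26 on the methyltransferase side, 17 lysine demethylases and 11 zinc-dependent deacetylases. The Y-linked Kdm5d was left out by the rule, as were an antisense RNA (Kdm6bos) and a pseudogene (Kdm4dl), which are not protein-coding. A filter on low counts kept 53 members; Kdm4d, with 0, 1 and 8 counts in controls 1, 2 and 3 and 6, 11 and 15 in knockout-labelled libraries 1, 2 and 3, did not pass it.

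The libraries were bulk RNA-seq of mouse neural stem cells isolated at postnatal day 7 and sampled on day 7 of culture in a mitogen medium that held EGF and bFGF, each at 20 ng/ml. Control animals were wild type (WT), and the other group was labelled Sirt6 knockout, described in the design text as a conditional knockout (cKO). Each group had 3 libraries, and both were grown in the same proliferation medium. The study asked how Sirt6, a nuclear NAD-dependent histone deacylase, influences these cells. The sources used here do not give the strain, the sex of the animals, the Cre driver or any pooling. Separate animals or cultures are not stated for the libraries of a group. A p-value here thus reflects only the spread between samples, which may be technical in part. The controls differed in sex-linked RNA, with Xist at 32116, 9 and 36131 counts in controls 1, 2 and 3.

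Histone methyltransferases place methyl groups on lysines of H3 and H4, and the effect depends on the residue: methylation of H3K4 and H3K36 marks active genes, whereas that of H3K9 and H3K27 marks silent ones. Demethylases of the amine oxidase family (Kdm1a, Kdm1b) and of the larger JmjC family, which need iron, oxygen and 2-oxoglutarate, remove these marks. Histone deacetylases remove acetyl groups and mostly work inside corepressor complexes. In neural stem cells the polycomb enzyme Ezh2, the demethylase Kdm1a and the deacetylases Hdac1 and Hdac2 are known for their part in proliferation and in the timing of differentiation.

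Sirt6 RNA was not reduced under the knockout label. Controls 1, 2 and 3 had 380, 293 and 260 Sirt6 counts, against 474, 492 and 442 for knockout-labelled libraries 1, 2 and 3, a log2 fold change of 0.61 ± 0.19 (SE; edgeR's quasi-likelihood test, unadjusted p = 0.0146, adjusted p = 0.998). These counts cover the whole gene and do not tell its exons apart, so the loss of part of its exons could be missed. Why the counts were higher was not tested. Directions are therefore given for the libraries labelled knockout and not for a loss of Sirt6.

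Library totals lay between 17198852 and 18297275 counts, so that a value of 1 CPM (counts scaled to a common TMM-adjusted library size) stood for 16.7 to 18.6 counts. Neural stem cell markers such as Nes and Sox2 were present in number, with 8 of 8 listed markers tested and a summed level of 5716 to 7756 CPM in controls and 6172 to 7813 CPM in the knockout-labelled group. Summed markers of the oligodendrocyte lineage reached 3342 to 4495 CPM against 3099 to 3261 CPM, those of astrocytes 1041 to 4090 against 2564 to 6353 CPM, and those of neurons 939 to 1239 against 1139 to 1248 CPM. Microglia markers summed to at most 0.516 CPM, with Tmem119 and Itgam not listed, endothelial markers to at most 8.01 CPM, with Cldn5 not listed, and pericyte and fibroblast markers to at most 1.97 CPM. Ependymal markers ranged from 15.6 to 63.2 CPM in controls and from 24.5 to 46.0 CPM in the other group. The controls were unlike each other in sex-linked RNA: Xist had 32116, 9 and 36131 counts in controls 1, 2 and 3, and summed Y-linked RNA was 67.5, 234 and 0 CPM. In knockout-labelled libraries 1, 2 and 3 Xist had 62927, 51663 and 39689 counts, and Y-linked RNA was at most 0.755 CPM. The mitotic score, the mean centred log2 CPM of 26 mitotic genes, was 0.43, 1.23 and -0.21 in controls 1, 2 and 3 and -0.84, 0.61 and -1.22 in knockout-labelled libraries 1, 2 and 3. Each knockout-labelled library thus lay below the control of the same number, while the groups overlapped.

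The neural stem cells carried RNA of nearly every enzyme of these families. Per length of merged exons, the most abundant was Ehmt2 (G9a), which with its partner Ehmt1 places mono- and dimethylation on H3K9, at 45.5 CPM per kb over all 6 libraries. The class I deacetylase Hdac2 followed with 41.8 CPM per kb, the X-linked H3K4 demethylase Kdm5c with 40.0 and the H3K4 demethylase Kdm1a (LSD1) with 30.7 CPM per kb. At the other end were Kdm4d at 0.137 CPM per kb, Setd4 at 1.42, the class IV deacetylase Hdac11 at 2.18 and the class IIa deacetylase Hdac9 at 2.19 CPM per kb. Within pairs of related enzymes 1 partner was usually ahead per length: Ehmt2 over Ehmt1 (11.8 CPM per kb), Hdac2 over Hdac1 (21.2), Kdm1a over Kdm1b (6.02), Suv39h1 (8.48) over Suv39h2 (2.71) and Ezh2 (9.89) over Ezh1 (3.72 CPM per kb). These orders held in each of the 6 libraries for those 5 pairs.

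**Figure D1:**
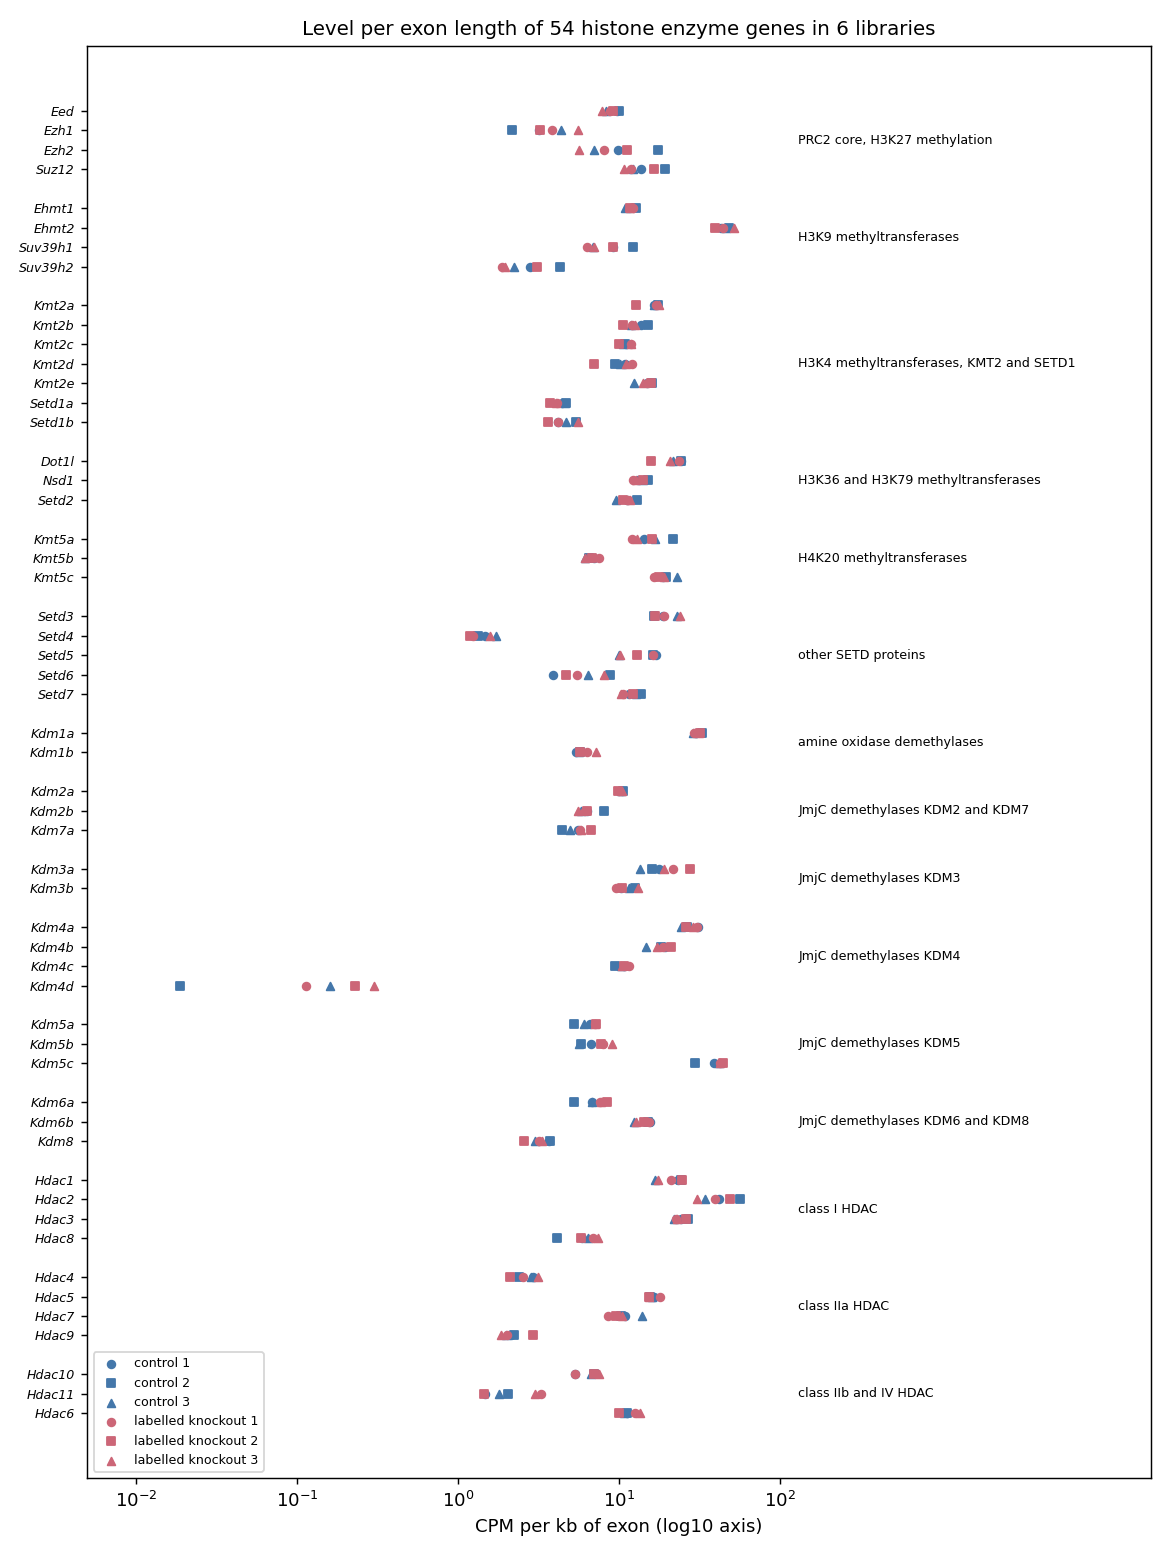
Level of each of the 54 histone enzyme genes per exon length, in CPM per kb on a log10 axis, grouped by enzyme class; each point is 1 library, with controls and knockout-labelled libraries in different colours. Kdm4d had 0 counts in control 1, which a log axis cannot show, and Ehmt2, Hdac2 and Kdm5c lie at the top.

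In other classes the member with the highest CPM, before any division by length, was as follows. Kmt2a (MLL1), which methylates H3K4, averaged 280.3 ± 9.40 CPM in controls and 264 ± 44.8 CPM in the knockout-labelled group (SD, n = 3 each). Nsd1, which dimethylates H3K36, averaged 247 ± 18.2 and 229 ± 17.4 CPM. Kmt5b, which adds the second and later methyl groups to H4K20, averaged 96.8 ± 5.95 and 101 ± 9.66 CPM. Setd5, a SET-domain chromatin regulator, averaged 265 ± 71.4 and 241 ± 57.1 CPM. Among demethylases, the H3K36 demethylase Kdm2a averaged 151 ± 2.29 and 146 ± 4.87 CPM, the H3K9 demethylase Kdm3b 162 ± 15.9 and 155 ± 25.7 CPM (highest of its class over all 6 libraries and in the controls, but below Kdm3a in the knockout-labelled group), the H3K9 and H3K36 demethylase Kdm4a 158 ± 20.3 and 164 ± 13.0 CPM, and the H3K27 demethylase Kdm6b 100.2 ± 12.1 and 98.0 ± 9.09 CPM. Hdac5, a class IIa deacetylase that shuttles between nucleus and cytoplasm, averaged 141 ± 4.27 and 143 ± 13.5 CPM. Members differed widely in how steady they were between controls: the coefficient of variation ran from 1.52% for Kdm2a to 47.2% for Ezh2 among the 53 tested.

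Between the groups no member passed. The edgeR quasi-likelihood test called 0 of 53 members at an adjusted p under 0.05, and 0 of all 15087 genes tested (a background of 0%). At an unadjusted p under 0.05 it gave 3 members, all higher in the knockout-labelled group, against 3.47% of all genes in either direction and 1.98% in that direction. These were Kdm5b, Kdm3a and Kdm6a, all JmjC demethylases, and 3 of 53 is 5.66%. DESeq2 called 6 of all genes (0.0347%) and limma-voom 0, and both called 0 members. The median log2 fold change of the members was -0.03, with 23 above and 30 below 0, and that of all genes 0.00. For 33 of 53 members (62.3%) the 95% interval of the log2 fold change lay inside a 1.5-fold change in either direction, as it did for 37.2% of all genes tested. These shares depend on the SE, whose median was 0.15 for the members and 0.23 for all genes tested. The oligodendrocyte lineage markers split between the groups, with 3 of 8 higher and 2 lower at an unadjusted p under 0.05 by edgeR. Higher were Mbp (log2 fold change 2.63), Sox10 (1.75) and Cnp (0.90), and lower were Olig2 (-0.53) and Cspg4 (-1.02). The median log2 fold change of this list was 0.50, and astrocyte markers had a median of 0.69 with 1 of 6 higher. The part of these cell types and of the mitotic score in the members' values was not tested by this comparison. In bulk RNA, fewer cells of a type and less RNA per cell cannot be told apart.

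The 3 kinds of enzyme differed in how their fold changes lay about 0. Of 16 demethylases tested, 11 were above and 5 below 0, with a median log2 fold change of 0.12. Of 26 methyltransferase genes, 6 were above and 20 below, with a median of -0.12, and of 11 deacetylases 6 were above and 5 below, with a median of 0.02. In 7 of 16 demethylases (43.8%) all 3 knockout-labelled libraries lay above all 3 controls, against 4.88% of all genes tested. In 0 demethylases they lay below. Among the 7, Kdm6a and Kdm5c are X-linked, with control 2 lowest, and Kdm1b barely cleared control 2. These demethylases are those with a Kdm symbol. The JmjC proteins outside the symbol rule (9 tested) all had overlapping groups. Their median log2 fold change was -0.02, with 0 genes at an unadjusted p under 0.05 by edgeR. Over all members 8 of 53 had groups without overlap, against 8.6% of all genes. The methyltransferases had 0 and 1 such genes, against 4.88% higher and 3.73% lower in the background, and the deacetylases had 0 and 0. Within same-numbered libraries, 8 of 16 demethylases were higher in all 3 pairs and 1 lower, 2 of 26 methyltransferases were higher and 11 lower, and 2 of 11 deacetylases were higher and 2 lower. In the background, 18% of all genes were higher in all 3 pairs and 18% lower. The difference between the enzyme kinds was not tested.

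**Figure D2:**
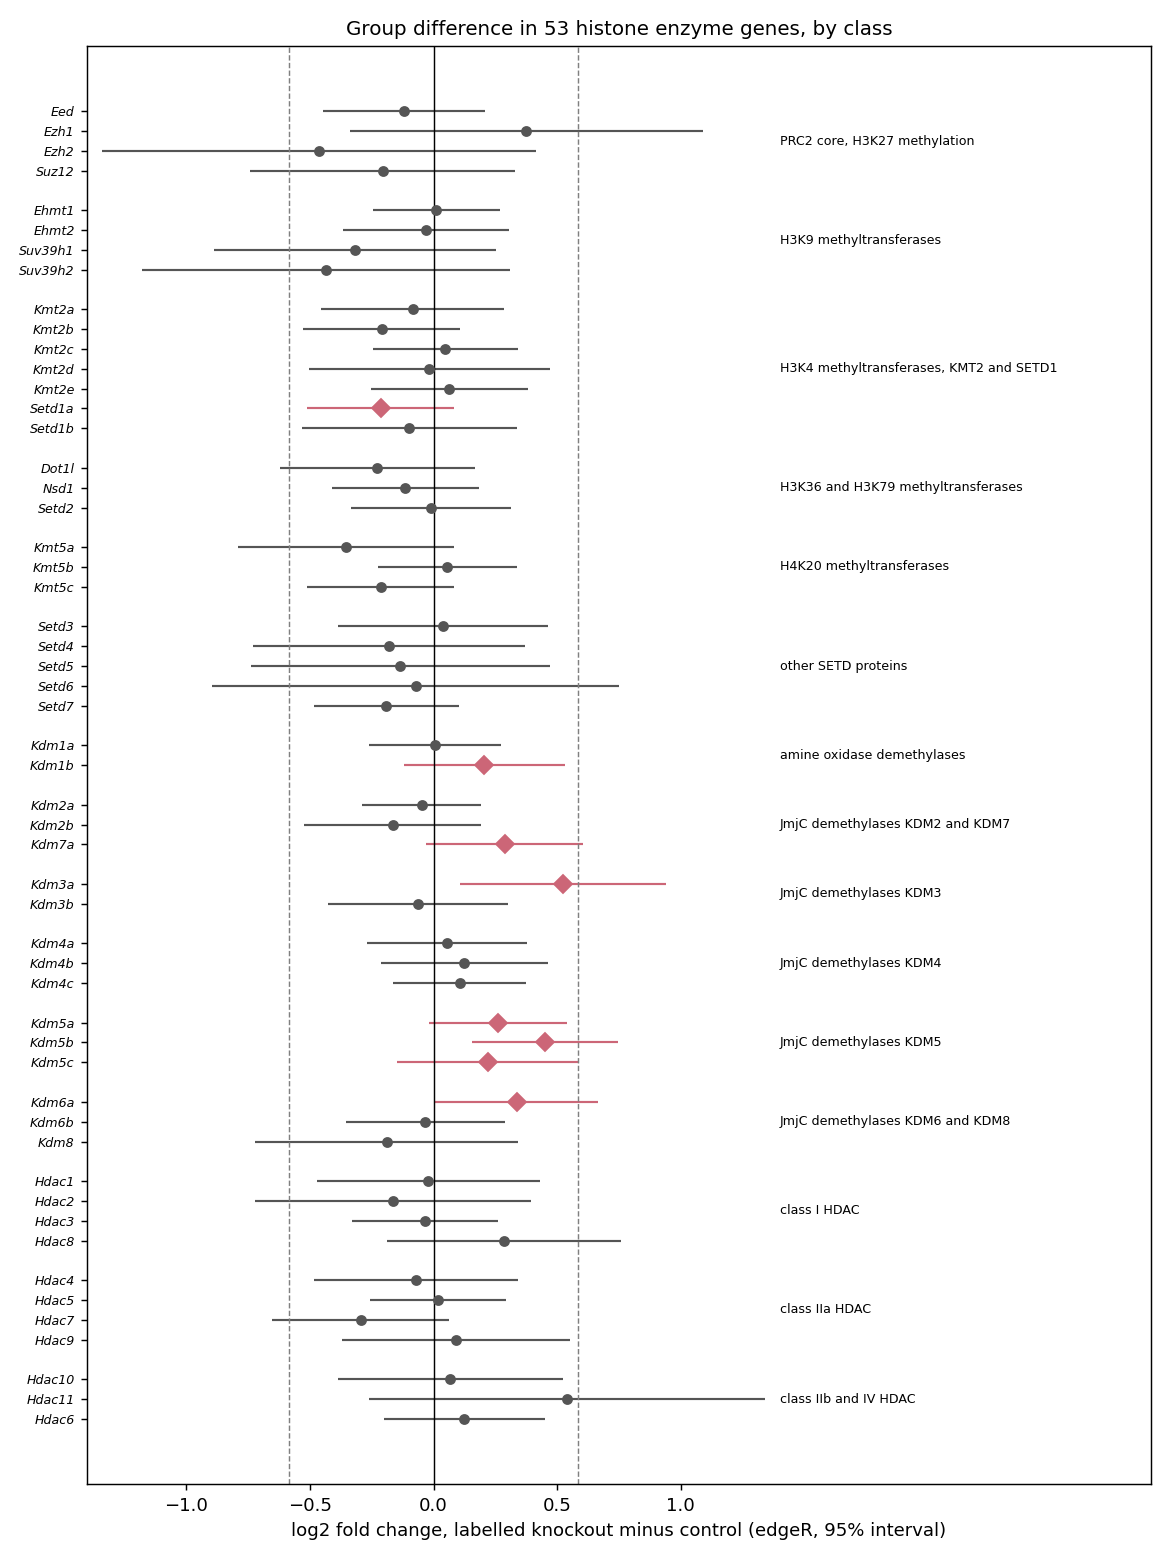
Log2 fold change (knockout-labelled over control) of the 53 tested histone enzyme genes, by enzyme class, with bars for the 95% interval of edgeR's fit and dashed lines at 1.5-fold. Red diamonds mark the 8 genes whose groups do not overlap; 7 of them are demethylases to the right of 0 and the other is Setd1a, at -0.21.

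Kdm3a, Kdm5b and Kdm6a had the lowest p-values of the family. Kdm3a removes mono- and dimethylation from H3K9 and is known as a gene induced by low oxygen, Kdm5b removes H3K4 methylation at promoters, and Kdm6a (UTX) removes H3K27 methylation as part of the complexes of Kmt2c and Kmt2d. In mm10, Kdm3a lies on chromosome 6 from 71588972 to 71632990 (minus strand), Kdm5b on chromosome 1 from 134560171 to 134635285 (plus strand) and Kdm6a on chromosome X from 18162575 to 18279936 (plus strand). Their promoter windows, 250 bases before to 50 after the RefSeq start on GRCm38.p6, are shown because these 3 had the lowest p-values. Capitals mark the CCAAT box and the core of the hypoxia response element, ACGTG, searched on both strands; the windows are chr6:71632868-71633167 (minus strand), chr1:134559928-134560227 (plus strand) and chrX:18162325-18162624 (plus strand).
Kdm3a promoter: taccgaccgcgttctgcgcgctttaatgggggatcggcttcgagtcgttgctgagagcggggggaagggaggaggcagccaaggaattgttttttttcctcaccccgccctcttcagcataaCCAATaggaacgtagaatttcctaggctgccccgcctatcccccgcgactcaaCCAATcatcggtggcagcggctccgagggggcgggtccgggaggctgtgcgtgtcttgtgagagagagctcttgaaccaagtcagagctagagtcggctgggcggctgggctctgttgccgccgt
Kdm5b promoter: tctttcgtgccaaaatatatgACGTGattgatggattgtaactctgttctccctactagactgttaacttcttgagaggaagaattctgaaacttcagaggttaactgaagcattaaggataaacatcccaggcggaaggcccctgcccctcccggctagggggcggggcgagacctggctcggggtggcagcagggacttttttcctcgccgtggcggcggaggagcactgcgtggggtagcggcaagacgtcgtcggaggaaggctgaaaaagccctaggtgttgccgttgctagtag
Kdm6a promoter: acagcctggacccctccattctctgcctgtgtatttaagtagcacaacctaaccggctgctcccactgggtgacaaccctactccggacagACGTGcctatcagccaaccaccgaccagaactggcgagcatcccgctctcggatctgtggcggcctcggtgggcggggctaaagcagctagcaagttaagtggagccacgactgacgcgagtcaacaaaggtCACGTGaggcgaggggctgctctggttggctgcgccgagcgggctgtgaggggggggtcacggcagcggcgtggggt
The Kdm3a window held 2 CCAAT boxes and no ACGTG, the Kdm5b window 1 ACGTG at -229 from the start, and the Kdm6a window 3 matches to ACGTG, at -159, -27 and -26, the last 2 being both strands of the same CACGTG. Of the 42 members with a RefSeq window, 19 (45.2%) held CCAAT and 9 (21.4%) ACGTG, against 37.4% and 19.6% of all 32851 windows of 300 bases. A match says nothing of binding.

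Kdm3a stood at 147, 132 and 112 CPM in controls 1, 2 and 3, and at 178, 228 and 156 CPM in knockout-labelled libraries 1, 2 and 3. The groups did not overlap, and library 2 of the knockout-labelled group was the highest. The log2 fold change was 0.52 ± 0.18 (SE), a 1.44-fold difference with a 95% interval of 0.11 to 0.94 on the log2 scale (edgeR's quasi-likelihood test, unadjusted p = 0.0208, adjusted p = 0.998). The same-numbered pairs differed by 0.28, 0.79 and 0.48 (log2). The labels do not state that these numbers pair the libraries, so results with a replicate block rest on an assumption. With the replicate number as a block, DESeq2 called Kdm3a at 0.51 ± 0.16 (SE; adjusted p = 0.0334), the only member among 463 genes called (3.7% of 12513 with an adjusted p, 1.22% of them higher), whereas edgeR with the block gave an adjusted p of 0.181 and called 0 genes. The value ran from 0.36 without knockout-labelled library 2 to 0.74 without controls 1 and 2. The authors' deposited table lists a log2 ratio of control over knockout of -0.52 for Kdm3a (adjusted p = 1.0). Its paralogue Kdm3b had a log2 fold change of -0.06 ± 0.15 (SE), and the ratio of Kdm3a to Kdm3b per length was 1.73, 1.27 and 1.17 in controls 1, 2 and 3 and 2.26, 2.66 and 1.45 in knockout-labelled libraries 1, 2 and 3. The groups overlapped in this ratio (mean log2 difference 0.58, exact permutation test, two-sided p = 0.2, where 3 against 3 can reach 0.1 at best).

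Kdm5b was at 111, 95.9 and 93.6 CPM in controls 1, 2 and 3, below the 131, 129 and 151 CPM of knockout-labelled libraries 1, 2 and 3. The log2 fold change was 0.45 ± 0.13 (SE), or 1.37-fold, with a 95% interval of 0.15 to 0.75 (edgeR's quasi-likelihood test, unadjusted p = 0.00847, adjusted p = 0.998). The pairs differed by 0.24, 0.43 and 0.68 (log2), and DESeq2 with the replicate block gave an adjusted p of 0.0872. Over 15 alternative fits it stayed between 0.38 and 0.55 with an unadjusted p under 0.05 in all 15. The authors' deposited table gives Kdm5b a log2 ratio (control over knockout) of -0.45 with an adjusted p of 0.935.

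The other Kdm5 members, which also act on H3K4, likewise had groups that did not overlap. Kdm5a stood at 93.0, 74.7 and 85.9 CPM in controls 1, 2 and 3 and at 100.2, 103 and 101 CPM in knockout-labelled libraries 1, 2 and 3 (log2 fold change 0.26 ± 0.12, SE; edgeR's quasi-likelihood test, unadjusted p = 0.0636). Its exons share 251 bases with Ccdc77 on the opposite strand, at 21.4 CPM, and the sources used here do not say whether counting used the strand. Kdm5c, the X-linked member, stood at 277, 212 and 298 CPM in controls 1, 2 and 3 and at 302, 313 and 302 CPM in knockout-labelled libraries 1, 2 and 3 (0.22 ± 0.16; unadjusted p = 0.201 by the same edgeR test). All 3 Kdm5 members were thus higher in every knockout-labelled library than in any control, with control 3 close below for Kdm5c. The Y-linked Kdm5d, left out by the rule, was present in number only in controls 1 and 2, the libraries with Y-linked RNA in number. It was at 21.7, 82.3 and 0 CPM in controls 1, 2 and 3 and at most 0.270 CPM in the knockout-labelled libraries.

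Kdm7a and Kdm1b complete the demethylases without overlap. Kdm7a, which removes H3K9 and H3K27 dimethylation, was at 55.6, 44.6 and 50.1 CPM in controls 1, 2 and 3 and at 57.8, 67.5 and 58.3 CPM in knockout-labelled libraries 1, 2 and 3 (log2 fold change 0.29 ± 0.14, SE; edgeR's quasi-likelihood test, unadjusted p = 0.0692). Kdm1b, the relative of LSD1 known from the mouse oocyte, was at 29.8, 31.5 and 30.9 CPM and at 34.8, 31.6 and 39.8 CPM (0.20 ± 0.14; unadjusted p = 0.182 by the same test), so that knockout-labelled library 2 barely cleared control 2. Kdm1b shares 505 exon bases with Dek on the opposite strand, which had 113 CPM against 33.1 CPM for Kdm1b, and reads of the pair cannot be assigned without the strand. Kdm1a itself was near 0 difference (0.01 ± 0.11), at 155, 171 and 149.8 CPM in controls 1, 2 and 3 and at 150.5, 164 and 164 CPM in knockout-labelled libraries 1, 2 and 3. In the Kdm4 class the lowest p belonged to Kdm4c, an H3K9 and H3K36 demethylase, with 0.11 ± 0.11 (unadjusted p = 0.384 by edgeR's quasi-likelihood test). Demethylases with values below 0 were Kdm2a, Kdm2b, Kdm3b, Kdm6b and Kdm8, from -0.19 to -0.03.

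**Figure D3:**
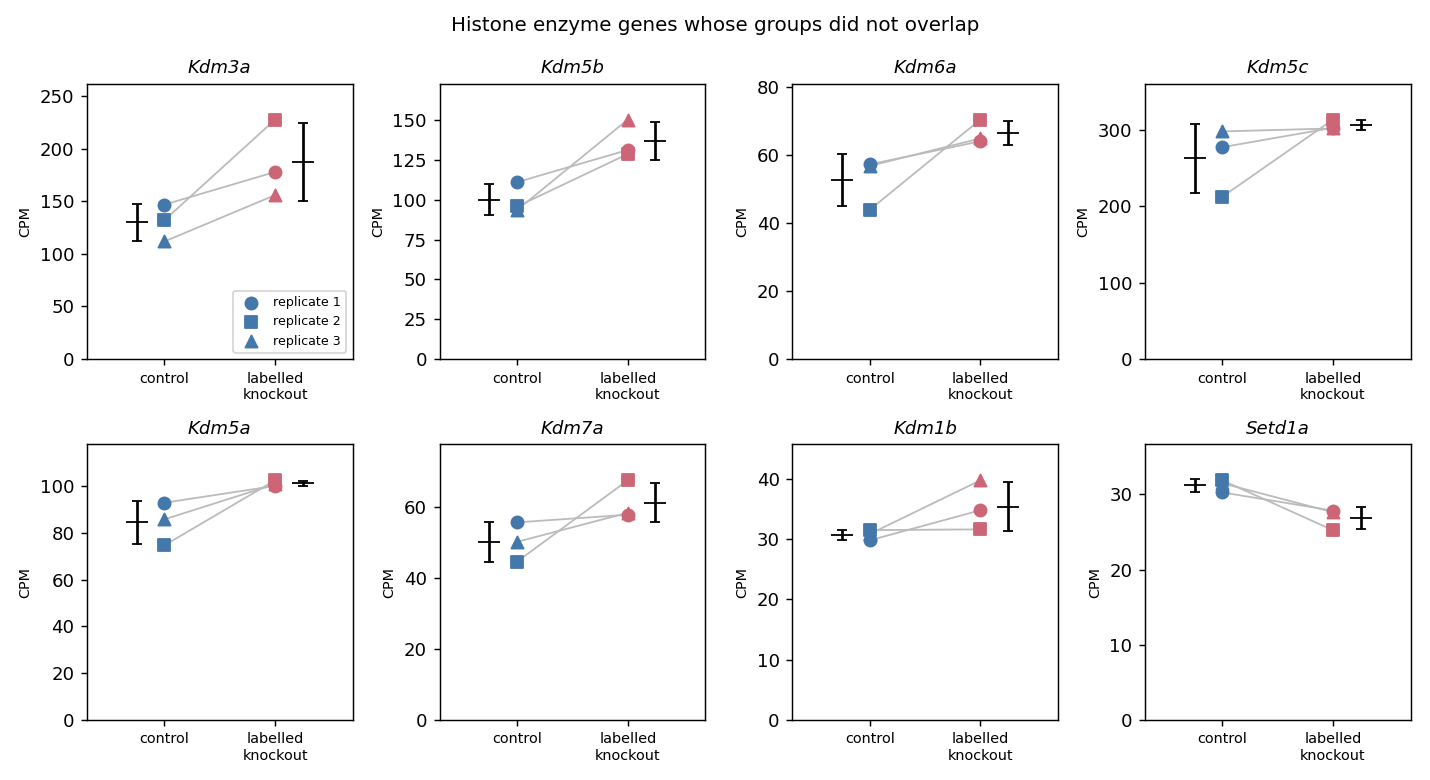
CPM of the 8 histone enzyme genes whose groups do not overlap, by group, on axes that start at 0; points are libraries, thin lines join libraries of the same number, and bars give the mean and SD (n = 3). Control 2 is the lowest control for Kdm5c, Kdm5a, Kdm6a and Kdm7a, and Setd1a is the gene with lower knockout-labelled values.

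Among these demethylases Kdm6a and Kdm5c are X-linked, and both are known in the mouse to escape X inactivation, the silencing of 1 X chromosome in female cells. Kdm6a stood at 57.2, 43.9 and 56.8 CPM in controls 1, 2 and 3 and at 64.0, 70.4 and 64.9 CPM in knockout-labelled libraries 1, 2 and 3. The log2 fold change was 0.34 ± 0.14 (SE), with a 95% interval of 0.01 to 0.67 (edgeR's quasi-likelihood test, unadjusted p = 0.0471, adjusted p = 0.998). Control 2, with 9 Xist counts and the most Y-linked RNA, was the lowest library for both genes. Without control 2 the Kdm6a value was 0.22, and without controls 1 and 2, the libraries with Y-linked RNA in number, it was 0.23 (unadjusted p = 0.272). For Kdm5c the value without controls 1 and 2 was 0.04 (unadjusted p = 0.858), where the lone control is taken to vary like the other group. For the autosomal Kdm5b and Kdm3a the values without these controls were 0.55 and 0.74. Other autosomal members moved by more, with Ezh1 going from 0.38 to -0.06 and Ezh2 from -0.46 to 0.24. The X-linked Hdac6 went from 0.12 to 0.16. The part of the sex-linked difference in the Kdm6a and Kdm5c values was not tested.

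The other X-linked members lay in overlapping groups. Hdac8, a class I deacetylase that acts on the cohesin subunit Smc3, was at 28.5, 20.1 and 31.3 CPM in controls 1, 2 and 3 and at 33.3, 28.0 and 36 CPM in knockout-labelled libraries 1, 2 and 3 (log2 fold change 0.29 ± 0.20, SE), again with control 2 lowest. Without controls 1 and 2 the Hdac8 value was 0.05 (unadjusted p = 0.835 by edgeR). Hdac6, a cytoplasmic deacetylase of tubulin, was at 62.6 to 65.1 CPM in controls and at 73.0, 58.3 and 78.7 CPM in knockout-labelled libraries 1, 2 and 3 (0.12 ± 0.14). Suv39h1, which trimethylates H3K9 in heterochromatin, stood at 48.2, 64.6 and 36.1 CPM in controls 1, 2 and 3 and 33.6, 48.7 and 37.1 CPM in knockout-labelled libraries 1, 2 and 3 (-0.32 ± 0.24). Control 2 was the highest library for Suv39h1, and the value was -0.08 without it and 0.14 without controls 1 and 2.

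On the methyltransferase side, Setd1a was the gene without overlap. It encodes the catalytic subunit of a COMPASS complex that places H3K4 trimethylation, and it stood at 30.3, 31.9 and 31.5 CPM in controls 1, 2 and 3 and at 27.8, 25.2 and 27.6 CPM in knockout-labelled libraries 1, 2 and 3. The groups were apart and the controls close together, yet the log2 fold change was only -0.21 ± 0.13 (SE; edgeR's quasi-likelihood test, unadjusted p = 0.134, adjusted p = 0.998). Over 15 alternative fits it stayed negative, with an unadjusted p under 0.05 in 0 of them. Kmt5a (SET8), the H4K20 monomethyltransferase needed for the cell cycle, stood at 75.7, 114 and 88.4 CPM in controls 1, 2 and 3 and at 64.1, 84.8 and 68.6 CPM in knockout-labelled libraries 1, 2 and 3 (-0.36 ± 0.19; unadjusted p = 0.0960 by the same test). Without control 2 the value was -0.18. The groups overlapped for Kmt5a, although each knockout-labelled library lay below the control of its number.

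The lowest p of the remaining methyltransferase classes also fell short of an unadjusted 0.05. Dot1l, the H3K79 methyltransferase, averaged 204 ± 14.3 CPM in controls and 174 ± 34.4 CPM in the knockout-labelled group (SD, n = 3 each), and its log2 fold change was -0.23 ± 0.17 (SE). Setd7, which monomethylates H3K4 and many non-histone proteins, averaged 136 ± 11.4 and 119.5 ± 10.8 CPM (-0.19 ± 0.12, SE). The H3K9 enzymes Ehmt1 and Ehmt2 had values near 0: Ehmt1 was at 88.4 to 103 CPM in controls and at 95 to 99.3 CPM in the other group (0.01 ± 0.11), and Ehmt2 at 237 to 267 and at 216 to 283 CPM (-0.03 ± 0.14). For Ehmt1 the 95% interval ran from -0.25 to 0.27 and for Ehmt2 from -0.36 to 0.31, both inside a 1.5-fold change. Suv39h2 was at 12.4, 18.9 and 9.90 CPM in controls 1, 2 and 3 and at 8.25, 13.6 and 8.65 CPM in knockout-labelled libraries 1, 2 and 3 (-0.43 ± 0.32), with 357 of its exon bases shared with Dclre1c on the opposite strand (17.9 CPM). Without controls 1 and 2 the Suv39h2 value was 0.036.

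The deacetylases showed no member with separate groups. Hdac2 was at 187, 252 and 153 CPM in controls 1, 2 and 3 and at 176, 218 and 136 CPM in knockout-labelled libraries 1, 2 and 3, a log2 fold change of -0.16 ± 0.24 (SE). Hdac1, its partner in the Sin3, NuRD and CoREST complexes, was at 80.1, 83.3 and 57.5 CPM in controls 1, 2 and 3 and at 72.7, 85.2 and 59.9 CPM in knockout-labelled libraries 1, 2 and 3 (-0.02 ± 0.19). Without controls 1 and 2 the values were 0.20 for Hdac2 and 0.34 for Hdac1. In both genes library 2 was the highest and library 3 the lowest of its group. The class IIa gene Hdac7 had a value of -0.30 ± 0.15 (edgeR's quasi-likelihood test, unadjusted p = 0.0923), from 78.7 ± 12.8 CPM in the controls to 64.2 ± 6.34 CPM (SD, n = 3 each), and it shares 29 exon bases with Slc48a1 on the opposite strand, at 109.8 CPM. The Hdac7 value was -0.15 without control 3 and -0.54 without controls 1 and 2. Hdac11 had the largest value of all 53 members, 0.54 ± 0.34 (unadjusted p = 0.157), but at a low level: 5.70, 7.86 and 6.93 CPM in controls 1, 2 and 3 and 12.6, 5.56 and 11.6 CPM in knockout-labelled libraries 1, 2 and 3, with library 2 below every control. Without knockout-labelled library 1 its value was 0.33.

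With the replicate number as a block, which compares libraries within their number, edgeR gave 10 members at an unadjusted p under 0.05 and 0 at an adjusted p under 0.05, beside 12.5% of all genes at the unadjusted level. Higher were Ezh1, Kdm3a, Kdm5a, Kdm5b, Kdm6a and Hdac8, or 6 of 53, against 5.69% of all genes. Lower were Ezh2, Suv39h2, Kmt5a and Hdac7, or 4 of 53, against 6.77% of all genes. The members' share is 11.3% higher and 7.55% lower.

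A second question was which of these enzymes follow how strongly a library expresses its mitotic genes. A fit with the group and the mitotic score gave for each gene a slope, the log2 change for a rise of 1 in the score at equal group. The score list holds none of the 54 members. By edgeR's quasi-likelihood test 273 of 15087 genes were called (1.81%), 239 with a positive (1.58%) and 34 with a negative slope (0.225%), but 0 of 53 members. All 26 genes that make up the score are among the 239, which follows from how the score was made. At an unadjusted p under 0.05 there were 13 members (24.5%), against 18.5% of all genes: 8 with a positive slope (background 10.3%) and 5 with a negative one (background 8.14%). DESeq2 with the same design called 5 members and 8.27% of all genes. These 5 were Ezh2, Suz12, Hdac2 and Suv39h2 with positive slopes (background 5.06%) and Ezh1 with a negative one (background 3.2%). Only 6 libraries carry the score, which differs between groups and was itself measured in them, so a slope is a description of these libraries. With the replicate number added as a block, which leaves 1 residual degree of freedom, edgeR called 0 members and 0 genes, and the slopes of Ezh2, Suz12, Hdac2, Ezh1 and Hdac8 changed sign, as given beside each.

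Ezh2, the catalytic subunit of polycomb repressive complex 2 (PRC2) that trimethylates H3K27, and Suz12, its structural partner, had the lowest p-values. The mm10 position of Ezh2 is chromosome 6, 47530139 to 47595341 (minus strand). Both promoters are shown because these genes had the lowest p-values for the slope and both windows hold a match to the E2F motif, which factors of the G1/S transition recognise. The windows are chr6:47594981-47595280 (minus strand) and chr11:79992856-79993155 (plus strand) of GRCm38.p6, and capitals mark E2F (TTTCCCGC, TTTCGCGC, TTTGCCGC or TTTGGCGC), CCAAT and ACGTG, each searched on both strands. The RefSeq start of Ezh2 lies 311 bases inside the gene end that the table gives.
Ezh2 promoter: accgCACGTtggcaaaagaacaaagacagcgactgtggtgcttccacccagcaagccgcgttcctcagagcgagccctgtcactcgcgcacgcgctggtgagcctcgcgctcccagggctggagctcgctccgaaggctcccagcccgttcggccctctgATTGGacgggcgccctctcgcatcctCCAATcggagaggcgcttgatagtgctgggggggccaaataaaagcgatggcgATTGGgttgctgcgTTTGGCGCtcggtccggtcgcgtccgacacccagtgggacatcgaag
Suz12 promoter: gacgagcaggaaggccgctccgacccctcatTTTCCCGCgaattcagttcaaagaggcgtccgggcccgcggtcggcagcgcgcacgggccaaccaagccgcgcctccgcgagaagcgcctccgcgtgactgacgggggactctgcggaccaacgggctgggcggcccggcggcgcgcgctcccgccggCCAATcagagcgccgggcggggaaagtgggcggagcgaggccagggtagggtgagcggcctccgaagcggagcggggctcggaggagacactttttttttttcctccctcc
The E2F match stands 3 bases after the start in Ezh2 and 219 bases before it in Suz12. Of 42 member windows, 3 held it (7.14%: Ezh2, Suz12 and Kmt5c), against 2.26% of all windows. The windows of Hdac2 and Suv39h2 did not hold these letters. Kmt5c, which did, had a slope of -0.06 ± 0.08 (SE; unadjusted p = 0.469 by edgeR's quasi-likelihood test). The Ezh2 and Suz12 windows were picked partly for the match, so it does not bear on their slopes. A match says nothing of binding.

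Ezh2 was at 66.0, 117 and 46.9 CPM in controls 1, 2 and 3 and at 53.6, 75.2 and 37.9 CPM in knockout-labelled libraries 1, 2 and 3. In each group library 2, with the highest score, was highest and library 3 lowest. The slope was 0.65 ± 0.12 (log2 per unit of score, SE; edgeR's quasi-likelihood test, unadjusted p = 0.00115, adjusted p = 0.0557), and DESeq2 gave an adjusted p of 0.000715. With the replicate block the slope was -0.54 (unadjusted p = 0.186 by edgeR). Between groups Ezh2 had a log2 fold change of -0.46 ± 0.37 with a 95% interval of -1.34 to 0.42, and the same-numbered pairs differed by -0.30, -0.63 and -0.31. That value was -0.02 without control 2 and 0.24 without controls 1 and 2. Suz12 was at 67.6, 95.4 and 60.8 CPM in controls 1, 2 and 3 and at 58.6, 82.1 and 53.4 CPM in knockout-labelled libraries 1, 2 and 3, in the same order of libraries. Its slope was 0.38 ± 0.07 (adjusted p = 0.0600 by edgeR and 0.00887 by DESeq2), or -0.020 with the replicate block, and its log2 fold change between groups was -0.21 ± 0.23. Eed, the third core subunit, which binds methylated H3K27, varied less, from 31.9 to 38.1 CPM in controls and from 30.0 to 35.1 CPM in the other group, with a slope of 0.13 ± 0.08.

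Ezh1, the second catalytic subunit of PRC2 and known as the form of non-dividing cells, had a slope of the opposite sign without the block. It was at 23.6, 16.2 and 32.6 CPM in controls 1, 2 and 3 and at 28.6, 23.9 and 41.2 CPM in knockout-labelled libraries 1, 2 and 3, with library 2 lowest in each group. The slope was -0.48 ± 0.12 (adjusted p = 0.111 by edgeR's quasi-likelihood test and 0.0210 by DESeq2), and with the replicate block it was 0.45 (unadjusted p = 0.328 by edgeR). The ratio of Ezh2 to Ezh1 per exon length was 3.12, 8.06 and 1.60 in controls 1, 2 and 3 and 2.08, 3.50 and 1.02 in knockout-labelled libraries 1, 2 and 3. It was lower in each knockout-labelled library than in the control of its number, with log2 differences of -0.58, -1.20 and -0.65, but the groups overlapped (mean log2 difference -0.81, exact permutation test, two-sided p = 0.5). Each library kept Ezh2 above Ezh1 per length.

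**Figure D4:**
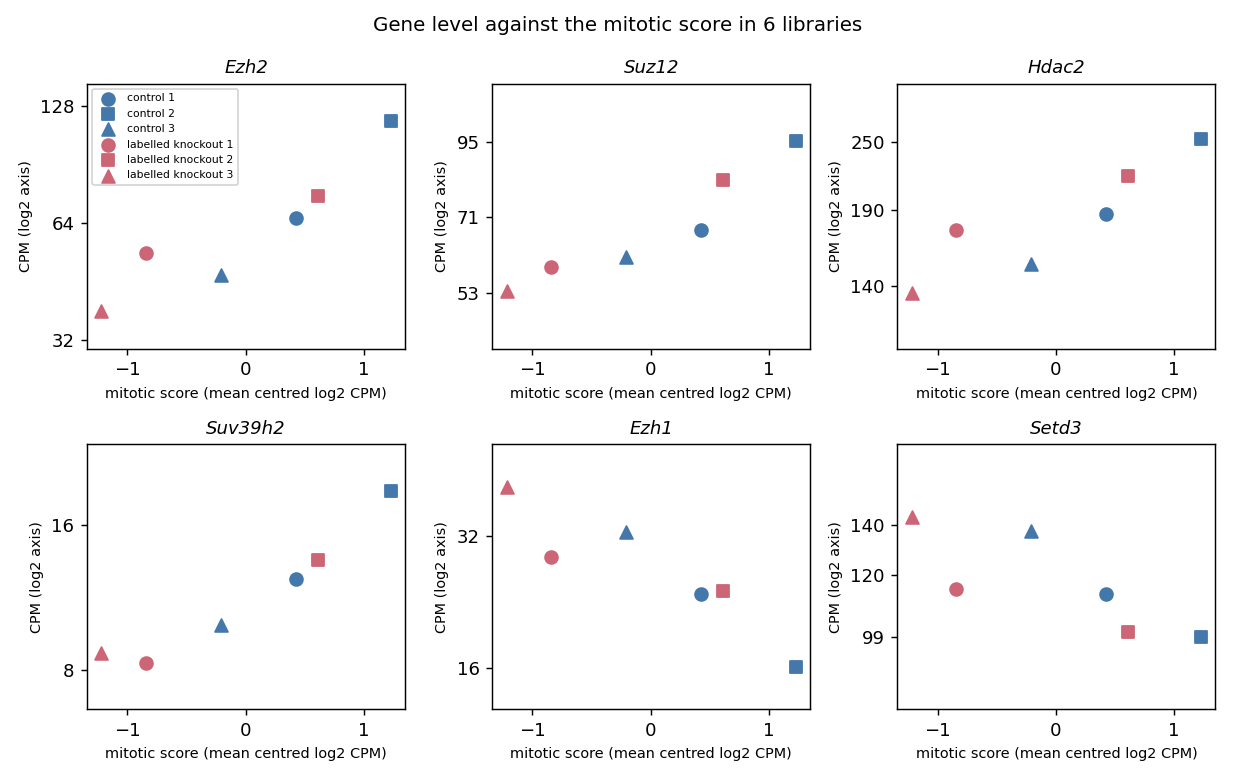
CPM (log2 axis) of Ezh2, Suz12, Hdac2, Suv39h2, Ezh1 and Setd3 against the mitotic score (mean centred log2 CPM of 26 genes); each point is 1 library, coloured by group. Without the replicate block the slopes run from 0.65 for Ezh2 to -0.48 for Ezh1; with it they are -0.54 and 0.45.

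The remaining members with an unadjusted p under 0.05 for the slope belonged to several classes. Hdac2 had a slope of 0.39 ± 0.09 (SE; adjusted p = 0.0846 by edgeR's quasi-likelihood test and 0.0121 by DESeq2) and Suv39h2 one of 0.49 ± 0.13 (adjusted p = 0.125 and 0.0360). With the replicate block the slope of Hdac2 was -0.18, that of Suv39h2 0.08, that of Suv39h1 0.06, that of Setd3 -0.0015 and that of Hdac8 0.41, each with an unadjusted p over 0.05 by edgeR. Without the block, positive slopes were also found for Suv39h1 (0.37 ± 0.10), Hdac1 (0.28 ± 0.09), Hdac9 (0.28 ± 0.09) and Kdm3a (0.24 ± 0.09). Negative slopes belonged to Setd3, the actin histidine methyltransferase (-0.27 ± 0.08), Kmt2d, an enhancer H3K4 methyltransferase (-0.29 ± 0.11), Hdac8 (-0.28 ± 0.10) and Hdac4 (-0.24 ± 0.09). With the replicate block the slope was 0.24 for Hdac1 and -0.047 for Hdac4. The Kdm3a slope was positive in all 14 alternative fits, with an unadjusted p under 0.05 in 9. It was 0.0030 in the fit with no group term (unadjusted p = 0.985 by edgeR). The slopes of Kdm5b (-0.06 ± 0.08), Kdm6a (-0.04 ± 0.10) and Kdm5a (-0.04 ± 0.08) were within 1 SE of 0.

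The partners of these enzymes were covered by 7 lists of 89 genes, of which 88 were tested. By edgeR 0 partners were called between groups, and at an unadjusted p under 0.05 there were 3 higher and 3 lower, beside 1.98% and 1.5% of all genes. DESeq2 with the replicate block called 3, against 3.7% of all genes. In the list of PRC2 accessory subunits (8 tested, median log2 fold change -0.22), Phf19, a Tudor-domain subunit, was at 23.5, 32.7 and 15.6 CPM in controls 1, 2 and 3 and at 11.3, 18.9 and 9.40 CPM in knockout-labelled libraries 1, 2 and 3. Its log2 fold change was -0.86 ± 0.35 (SE; unadjusted p = 0.0451 by edgeR's quasi-likelihood test, adjusted p = 0.00357 by DESeq2 with the block). Its slope on the mitotic score was 0.61 ± 0.10, the 1 partner slope called by edgeR (adjusted p = 0.0430), and 6 of the 8 accessory subunits had a positive slope at an unadjusted p under 0.05, against 10.3% of all genes. With the replicate block 0 partner slopes were called. The most abundant of them, the histone chaperone Rbbp4, averaged 235 ± 36.3 CPM in controls and 215 ± 33.5 CPM in the other group (SD, n = 3 each). The related subunit Phf1, named after its values were seen, was also called by DESeq2 with the block (adjusted p = 0.0306), at 14.3 ± 6.65 CPM in controls against 7.84 ± 2.95 CPM.

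Subunits of the complexes that carry the deacetylases (27 tested) had a median log2 fold change of -0.03, with 1 higher and 1 lower at an unadjusted p under 0.05. The higher one, named after its values were seen, was the NuRD remodeller Chd3, at 41.7, 52.7 and 33.4 CPM in controls 1, 2 and 3 and at 76.3, 50.9 and 65.8 CPM in knockout-labelled libraries 1, 2 and 3 (0.59 ± 0.22; unadjusted p = 0.0274 by edgeR), in overlapping groups. Its relative Chd4 was the most abundant, at 710.4 ± 47.9 and 693 ± 49.5 CPM. COMPASS subunits (11 of 12 tested) had a median of -0.12 and 0 genes at an unadjusted p under 0.05 between groups; the one nearest was Paxip1 at -0.41 ± 0.21, and the most abundant was Hcfc1 at 321 ± 59.0 and 266 ± 13.6 CPM.

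Further methyltransferases outside the symbol rule (16 tested, median -0.03) had 1 gene at an unadjusted p under 0.05, Smyd4, at 13.2, 14.0 and 16.3 CPM in controls 1, 2 and 3 and at 11.1, 9.86 and 10.4 CPM in knockout-labelled libraries 1, 2 and 3 (-0.47 ± 0.18). Nsd2, an H3K36 dimethyltransferase and the most abundant of that list, averaged 329 ± 99.1 and 276 ± 50.3 CPM. Other JmjC proteins (9 tested, median -0.02) had 0 such genes, with Jmjd6 nearest at 0.38 ± 0.27 and Jmjd1c most abundant at 289 ± 68.8 and 273 ± 28.8 CPM. Histone acetyltransferases (10 tested, median -0.03), which oppose the deacetylases, had 0, with Kat2b nearest at 0.19 ± 0.12 and Kat6a most abundant at 287 ± 29.5 and 264 ± 9.74 CPM. Of 7 sirtuins, the NAD-dependent deacylases, 2 were higher at an unadjusted p under 0.05, Sirt6 itself and Sirt2, with a list median of 0.09. Sirt2, a tubulin deacetylase abundant in oligodendrocytes, was at 290.2, 243 and 371 CPM in controls 1, 2 and 3 and at 449.8, 481 and 537 CPM in knockout-labelled libraries 1, 2 and 3 (log2 fold change 0.70 ± 0.19, SE; unadjusted p = 0.00697 by edgeR's quasi-likelihood test, adjusted p = 1.94e-04 by DESeq2 with the block). The groups did not overlap.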

How the data were processed

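Counts were analysed for 6 bulk RNA-seq libraries, 3 per group. Raw counts per gene were deposited as whole numbers, per the file headers. It also holds the authors' mean of scaled counts (a signal column), a ratio or fold change, a log2 ratio of control over knockout, and a p-value with its adjusted form, all deposited as single columns. The submitters' processing notes name HISAT2 2.1.0, Bowtie2 2.2.3 and mm10. The counting tool, strand setting and annotation are not given there.

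The counts were fitted over all genes in R 4.3.3 with edgeR 4.0.16 and limma 3.58.1, using TMM, filterByExpr (minimum count 10, total 15), robust quasi-likelihood, and Benjamini-Hochberg adjustment over 15087 genes at 0.05. A second fit added the mitotic score. CPM use TMM-scaled totals, log2 CPM a prior count of 2. Alternatives were DESeq2 1.42.0, limma-voom, other scalings and filters, the replicate block, and libraries left out. Every pair of libraries differed beyond sampling noise (chi-square per degree of freedom at least 22.2). The scripts were tested on simulated data.

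Titles number both groups 1 to 3. After subtraction of group means, libraries numbered 1, 2 and 3 correlated with their namesakes at 0.43, 0.35 and 0.51 over genes. The numbers were therefore taken to pair the libraries. This pairing comes from the data and not from the labels, and correlations between unlike numbers were not compared. By chi-square per degree of freedom, same-numbered libraries stood at 22.2, 65.9 and 39.7 for numbers 1, 2 and 3. Control 1 was nearer to knockout-labelled library 2 (33.9) than control 2 was (65.9). Every result with the replicate block thus rests on an assumption. The main fit has no block.

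Exon lengths came from GENCODE M21 (54 of 54 members matched) and promoters from RefSeq GRCm38.p6 (42 matched by symbol). The members and lists were chosen with earlier results of these data known. Genes were named by rule: members on chromosome X, members whose groups did not overlap, 5 paralogue pairs, and in each class and partner list the most abundant gene and that with the lowest p. Members with an unadjusted p under 0.05 for the slope, Eed, Phf1 and Chd3 were added after their values were seen. A partner gene that the rule would name is not reported here.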

Additional observations from a re-analysis of the deposited data

How the results depend on the processing

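Over all genes edgeR called 1 without a filter, DESeq2 6 and DESeq2 with the replicate block 463, and leaving out each library gave 0 to 2. Genes at an unadjusted p under 0.05 numbered 820 without a filter, 1880 and 1499 with the replicate block (edgeR and DESeq2), and 369 to 1025 with a library left out. DESeq2 with the replicate block called 1 member and 3 partners, and members at an unadjusted p under 0.05 were 10 by edgeR and, with Kdm4d, 6 by DESeq2 under the block. Kdm1a went to -0.0024 under scaling by total counts. Without control replicates 1 and 2, values turned to -0.060 for Ezh1, 0.24 for Ezh2, 0.34 for Hdac1, 0.20 for Hdac2, 0.14 for Suv39h1 and 0.036 for Suv39h2. With each library left out, values ran from -0.037 to 0.070 for Ehmt1, -0.14 to 0.065 for Ehmt2, -0.17 to 0.10 for Hdac1, -0.33 to 0.054 for Hdac2 and -0.026 to 0.065 for Kdm1a. For the mitotic score, genes called were 622 without a filter, 1122 by DESeq2, 571 with no group term, 0 with the replicate block and 0 to 503 with a library left out. Members called were 4, 5, 4, 0 and 0 to 2 in that order, and partners 3, 5, 2, 0 and 0 to 2. Unadjusted, members numbered 7 to 13 and genes 1826 to 3236 with a library left out. The fit of group, score and replicate block leaves 1 residual degree of freedom; it gave 2 members and 1109 genes unadjusted, and slopes of 0.45 for Ezh1, -0.54 for Ezh2, -0.18 for Hdac2, 0.41 for Hdac8 and -0.020 for Suz12. With that block edgeR gave none of the members named above an adjusted p under 0.05; the 5 slopes called by DESeq2 were not refitted with it. Where no construction is named, the cause was not tested. Alternatives for the partner lists were chosen after seeing the data.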
